A study of Mus musculus with 12 samples.

Results

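The transcripts described here are 9 genes of the oligodendrocyte lineage, Olig1, Olig2, Sox10, Pdgfra, Cspg4, Cnp, Mbp, Mag and Mog, measured in sorted cell fractions of the mouse hippocampus. The genes were taken from a written list of precursor and mature oligodendrocyte genes and matched by symbol to the Ensembl identifiers of the deposited count tables, where all 9 were found among the 25442 genes that both tables hold. Male C57Bl6/J mice were injected in both hippocampi at 2 months of age with an AAV2/9 vector and studied 2 months later. The vector carried either the murine adenosine A2A receptor (AAV-A2A) or GFP (AAV-GFP, the control), in both cases under GfaABC1D, a promoter that restricts expression largely to astrocytes. Cells were sorted with beads against ACSA-2, an astrocyte surface antigen, and the cells that these beads left behind were sorted with beads against CD11b, a microglial surface protein. Before either sort, the suspension was passed over myelin removal beads, and the cells and debris that these retained were not sequenced. The 4 groups held 3 libraries each. The ACSA-2 libraries were GFP-303, GFP-306, GFP-307 (AAV-GFP), A2A-309, A2A-310, A2A-313 (AAV-A2A), and the CD11b libraries GFP-2328, GFP-2329, GFP-2331 (AAV-GFP), A2A-2343, A2A-2344, A2A-2347 (AAV-A2A). Values of single libraries are given in this order. Both fractions thus come from animals that received an AAV, and no uninjected or unsorted sample was analysed here. The sources used here do not say whether libraries of the ACSA-2 and CD11b fractions came from the same mice or were prepared together, so fraction and preparation cannot be told apart.

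Oligodendrocytes arise from precursor cells that carry the growth factor receptor Pdgfra and the proteoglycan NG2, encoded by Cspg4, on their surface. The basic helix-loop-helix factors Olig1 and Olig2 and the HMG-box factor Sox10 act throughout the lineage, and Sox10 drives the myelin genes. Maturing cells then make the myelin proteins encoded by Cnp, Mbp, Mag and Mog, of which Mog comes late and lies on the outer myelin surface. Several of these genes are also known outside the lineage: Cspg4 in pericytes, Pdgfra in fibroblasts, and Olig2 in some astrocytes.

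In GRCm38 coordinates, Olig1 (ENSMUSG00000046160) lies on chromosome 16 from 91269772 to 91271933 and Olig2 (ENSMUSG00000039830) beside it on the same strand from 91225457 to 91228677. Sox10 (ENSMUSG00000033006) lies on chromosome 15 from 79154908 to 79165240, Pdgfra (ENSMUSG00000029231) on chromosome 5 from 75152292 to 75198215 and Cspg4 (ENSMUSG00000032911) on chromosome 9 from 56865033 to 56899870. Cnp (ENSMUSG00000006782) lies on chromosome 11 from 100574904 to 100591729, Mag (ENSMUSG00000036634) on chromosome 7 from 30899176 to 30914873 and Mog (ENSMUSG00000076439) on chromosome 17 from 37010743 to 37023398. The position of Mbp is given with its values. Exonic length went from 1704 bases for Mog to 11931 bases for Cspg4. Exons of Olig1 (7.3%), Pdgfra (6.5%) and Cnp (4.2%) overlap other genes in part, mostly on the opposite strand, and the strand setting of the counting is not given in the sources used here, so the counts of these 3 genes carry that uncertainty.

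Promoters are shown for 4 members that passed a test in the comparisons below and have an entry in the RefSeq table, which holds none for Olig1: Cspg4 differed between the vectors, and Olig2 and Cnp were higher and Mag lower in the ACSA-2 fraction. Each window runs from 250 bases before to 50 bases after the RefSeq transcript start in GRCm38.p6, 5′ to 3′ on the gene's strand, and capitals mark matches to CANNTG, the E-box class bound by OLIG factors, or to the SOX core ACAAAG on either strand.
Cspg4, chr9:56864854-56865153, plus strand: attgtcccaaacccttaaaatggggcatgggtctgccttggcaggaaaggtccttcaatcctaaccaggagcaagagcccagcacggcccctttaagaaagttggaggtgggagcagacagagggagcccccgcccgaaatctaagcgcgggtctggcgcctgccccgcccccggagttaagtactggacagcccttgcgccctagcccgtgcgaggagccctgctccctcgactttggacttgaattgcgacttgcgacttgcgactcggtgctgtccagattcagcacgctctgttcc
Olig2, chr16:91225300-91225599, plus strand: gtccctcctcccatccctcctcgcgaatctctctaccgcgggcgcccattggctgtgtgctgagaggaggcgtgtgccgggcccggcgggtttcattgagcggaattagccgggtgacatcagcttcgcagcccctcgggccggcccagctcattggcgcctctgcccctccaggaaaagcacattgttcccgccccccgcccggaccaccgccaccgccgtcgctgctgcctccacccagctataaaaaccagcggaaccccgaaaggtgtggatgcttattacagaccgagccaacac
Cnp, chr11:100574689-100574988, plus strand: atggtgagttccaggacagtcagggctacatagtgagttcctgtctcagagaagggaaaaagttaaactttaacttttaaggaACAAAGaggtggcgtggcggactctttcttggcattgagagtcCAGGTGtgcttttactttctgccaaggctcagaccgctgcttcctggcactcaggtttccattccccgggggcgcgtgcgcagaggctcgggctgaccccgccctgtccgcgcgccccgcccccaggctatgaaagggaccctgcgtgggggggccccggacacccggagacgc
Mag, chr7:30914814-30915113, minus strand: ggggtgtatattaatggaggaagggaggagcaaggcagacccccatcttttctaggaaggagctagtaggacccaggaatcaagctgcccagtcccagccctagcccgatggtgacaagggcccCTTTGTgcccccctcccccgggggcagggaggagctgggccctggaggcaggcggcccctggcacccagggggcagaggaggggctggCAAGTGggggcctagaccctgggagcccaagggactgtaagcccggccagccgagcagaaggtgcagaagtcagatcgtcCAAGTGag
The Mag window held 2 E-box matches and 1 SOX core match, and the Cnp window 1 of each, with no overlap between them. The windows of Cspg4 and Olig2 held 0 of either, and therefore carry no capitals. Of all 32851 promoter windows of 300 bases, 72.3% held at least 1 E-box match and 18.7% at least 1 SOX core match, so that most promoters hold an E-box match.

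Expression is given as CPM, the read count relative to the library's size after one TMM scaling over all 12 libraries, and, where different genes are set side by side, as RPKM, the CPM per kilobase of exon. The libraries held 33937067 to 49217553 counts in the ACSA-2 and 36098295 to 53206974 in the CD11b fraction. Adora2a, the gene carried by the vector, was at 23.2 to 25.6 CPM in the AAV-GFP and 655 to 927 CPM in the AAV-A2A libraries of the ACSA-2 fraction, as the labels say. In the CD11b fraction it was at 3.77 to 8.30 CPM in AAV-GFP and 14.97 to 45.2 CPM in AAV-A2A libraries. The 12 astrocyte markers summed to 36370 to 55740 CPM in the ACSA-2 and 496 to 4875 CPM in the CD11b libraries, and the 12 microglial markers to 332 to 604 and 8515 to 69310 CPM. The CD11b libraries GFP-2328, GFP-2329 and A2A-2347 stood apart, with 72990, 60850 and 29330 CPM of 9 choroid plexus and ependymal markers, of which Ttr was the most abundant. The other 3 CD11b libraries held 41.1 to 248 CPM of these markers, so the log2 FC of the members that rest on the CD11b fraction were also computed without the first 3, and the ratio and the other listed genes were not. By list, the most abundant genes were Aldoc (ACSA-2) and Clu (CD11b) for astrocytes, Csf1r (CD11b) for microglia, Snap25 (ACSA-2) and Camk2a (CD11b) for neurons, and Vtn for mural, Slc6a20a for fibroblast and Itm2a for endothelial cells in both fractions. In sorted bulk samples, fewer cells of a type and less RNA per cell cannot be told apart.

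Most members were detected, but Sox10 and Mog, the members most confined to oligodendrocytes, were near the lower end of detection. In the ACSA-2 fraction the order of mean RPKM was Cnp (95.4 ± 20.8, SD, n = 6), Olig1 (84.8 ± 25.3), Cspg4 (13.2 ± 9.85), Olig2 (12.3 ± 5.31), Mbp (3.46 ± 1.32), Pdgfra (0.513 ± 0.134), Mag (0.290 ± 0.269), Mog (0.144 ± 0.226) and Sox10 (0.0577 ± 0.0728). In that order the ranges of the 6 libraries separated Olig1 from Cspg4, Olig2 from Mbp and Mbp from Pdgfra, while all other neighbours overlapped. In the CD11b fraction the order was Cnp (31.8 ± 13.4 RPKM), Mag (9.02 ± 5.56), Mbp (7.19 ± 1.93), Cspg4 (5.16 ± 2.77), Olig1 (3.82 ± 1.82), Pdgfra (1.16 ± 1.06), Olig2 (0.644 ± 0.335), Sox10 (0.204 ± 0.212) and Mog (0.170 ± 0.113), and every pair of neighbours overlapped. By the mean of 6 libraries Cnp therefore led in both fractions, and Olig1 stood beside it in the ACSA-2 fraction alone. In the AAV-GFP libraries of that fraction the mean of Olig1 (93.1 ± 17.8 RPKM) was above that of Cnp (89.9 ± 7.55). Mag took the second place in CD11b and the seventh in ACSA-2 libraries.

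**Figure D1:**
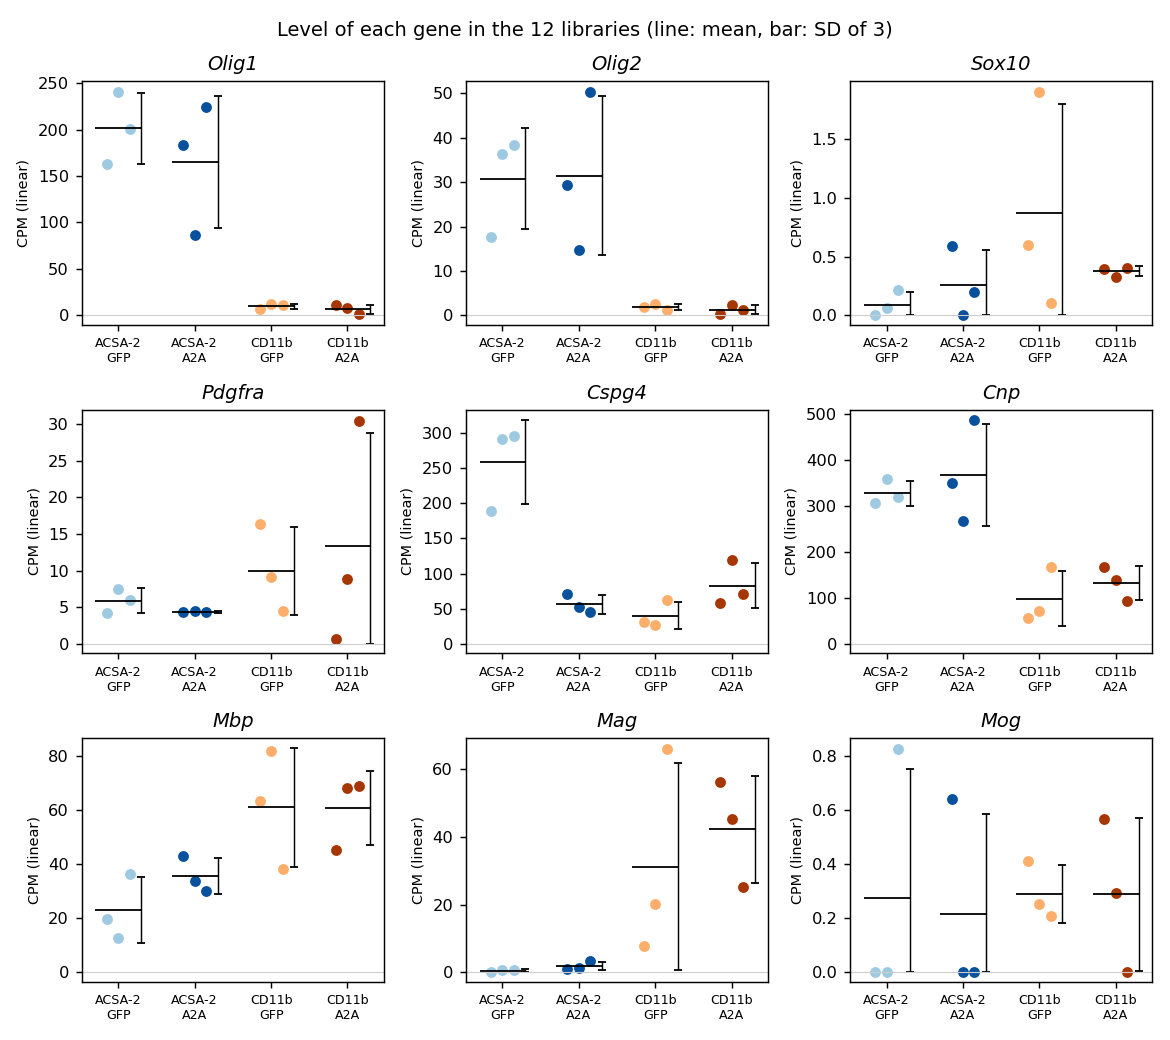
Level of the 9 genes in each library in CPM on a linear axis that differs between panels, with the mean of 3 libraries as a line and their SD as a bar, whose lower end stops at 0. Olig1 and Olig2 lie high in the ACSA-2 libraries of both vectors, Cspg4 is high only in the 3 ACSA-2 libraries of AAV-GFP (190 to 296 CPM), and Mag and Mbp lie higher in the CD11b libraries.

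The first comparison, AAV-A2A against AAV-GFP in the ACSA-2 fraction, asks whether the members differ when astrocytes carry more A2A receptor. Cspg4, which encodes the NG2 proteoglycan of precursors and pericytes, was lower with AAV-A2A, while none of the other 6 tested members passed the test. Cspg4 was at 190, 291 and 296 CPM in the AAV-GFP and at 71.2, 53.1 and 44.8 CPM in the AAV-A2A libraries. Each AAV-A2A library lay below every AAV-GFP library. The mean fell from 259 ± 59.9 to 56.4 ± 13.5 CPM (SD, n = 3), 4.52-fold (log2 FC -2.17, SE 0.24, 95% interval -2.72 to -1.63, edgeR adjusted p = 0.00226). It passed in every alternative run for this comparison, including edgeR on all 12 libraries (adjusted p = 0.0259) and each library left out in turn (-2.38 to -2.05). This was 1 of 7 tested members, beside 3.36% of the 16451 genes tested, of which 524 were lower and 29 higher. Sox10 and Mog did not pass the filter on low counts in this fraction.

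Cspg4 has long exons, and the median of long genes was slightly lower with AAV-A2A in this fraction. Among the 1212 tested genes of like exonic length (from 0.8 times that of Cspg4 to the inverse of this factor) the median log2 FC was -0.10 and 8.09% were called. With each library's trend on exonic length removed, the log2 FC of Cspg4 was -2.01 (edgeR adjusted p = 0.00292). The part of pericyte RNA in this difference was not tested, and the markers moved beside it as follows. The 13 mural cell markers (pericytes and smooth muscle) summed to 7540 to 8735 CPM in the AAV-GFP and 4223 to 6466 CPM in the AAV-A2A libraries, without overlap. Of the 13 markers 2 were called, both lower, the ATPase gene Atp13a5 (log2 FC -1.85, edgeR adjusted p = 0.00618) and the receptor gene Notch3 (log2 FC -1.80, edgeR adjusted p = 0.0205), which were named after their values were seen. Over the list 12 of 13 log2 FC were negative, with a median of -0.49, against 0.02 over all tested genes. Vtn, the most abundant of them, was at 3988 ± 92.6 and 3495 ± 603 CPM (log2 FC -0.16), and Kcnj8, a pericyte potassium channel gene also named after the fact, at 408 ± 24.1 and 381 ± 60.7 CPM (log2 FC -0.07), and neither passed. Fibroblast markers summed to 449 to 716 CPM in the AAV-GFP and 354 to 564 CPM in the AAV-A2A libraries, with overlap. The median log2 FC was also negative for other lists. It was -0.48 for fibroblast markers (7 negative, 2 positive) and -0.43 for listed genes of differentiating oligodendrocytes (7 and 4). For the other listed precursor genes it was -0.07 (8 and 8).

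The other precursor gene, Pdgfra, the receptor for PDGF-AA, was low in this fraction. It was at 4.16, 7.51 and 5.98 CPM in the AAV-GFP and 4.37, 4.54 and 4.30 CPM in the AAV-A2A libraries, so that the groups overlapped, and the log2 FC of -0.39 (SE 0.42, 95% interval -1.34 to 0.56, edgeR adjusted p = 0.807) did not pass. Pdgfra was far lower than Cspg4 in level, since per kilobase Cspg4 was at 21.7 ± 5.02 and Pdgfra at 0.587 ± 0.167 RPKM in AAV-GFP libraries.

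The factors Olig1 and Olig2 were well detected in the ACSA-2 fraction and did not differ between the vectors beyond the spread. Olig1 was at 163, 240 and 200 CPM in AAV-GFP and 184, 86.9 and 225 CPM in AAV-A2A libraries (log2 FC -0.26, SE 0.32, 95% interval -0.97 to 0.46, edgeR adjusted p = 0.844). Olig2 was at 17.7, 36.4 and 38.4 CPM and at 29.4, 14.7 and 50.3 CPM (log2 FC 0.06, SE 0.45, interval -0.94 to 1.06, edgeR adjusted p = 0.983). For both genes A2A-310 was the lowest of the 6 libraries and GFP-303 the next. Differences within these intervals could not be told from no change with 3 libraries per group. Sox10 counts were 0, 2 and 8 with AAV-GFP against 21, 0 and 9 with AAV-A2A, where a count of 0 allows up to 3 counts.

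Of the myelin genes, Cnp, which encodes the CNPase enzyme of non-compact myelin, was abundant in the ACSA-2 fraction with both vectors. It was at 305, 358 and 318 CPM in AAV-GFP and 349, 266 and 486 CPM in AAV-A2A libraries (log2 FC 0.20, SE 0.23, 95% interval -0.32 to 0.71, edgeR adjusted p = 0.828). Mbp (ENSMUSG00000041607, chromosome 18 from 82475146 to 82585637), a main protein of compact myelin, was at 19.8, 12.6 and 36.4 CPM and at 43.1, 33.6 and 30.1 CPM (log2 FC 0.66, SE 0.36, interval -0.15 to 1.48, edgeR adjusted p = 0.514). Mag, a sialic acid-binding adhesion protein of the inner myelin membrane, showed counts of 0, 26 and 27 with AAV-GFP against 40, 52 and 149 with AAV-A2A. The 3 AAV-A2A libraries lay above the 3 AAV-GFP libraries for Mag, but at these low counts the log2 FC of 1.93 had a standard error of 1.34 (95% interval -1.07 to 4.93, edgeR adjusted p = 0.652). Mog had 31 counts in GFP-307, 23 in A2A-309 and 0 in the other 4 libraries, and no fold is given.

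**Figure D2:**
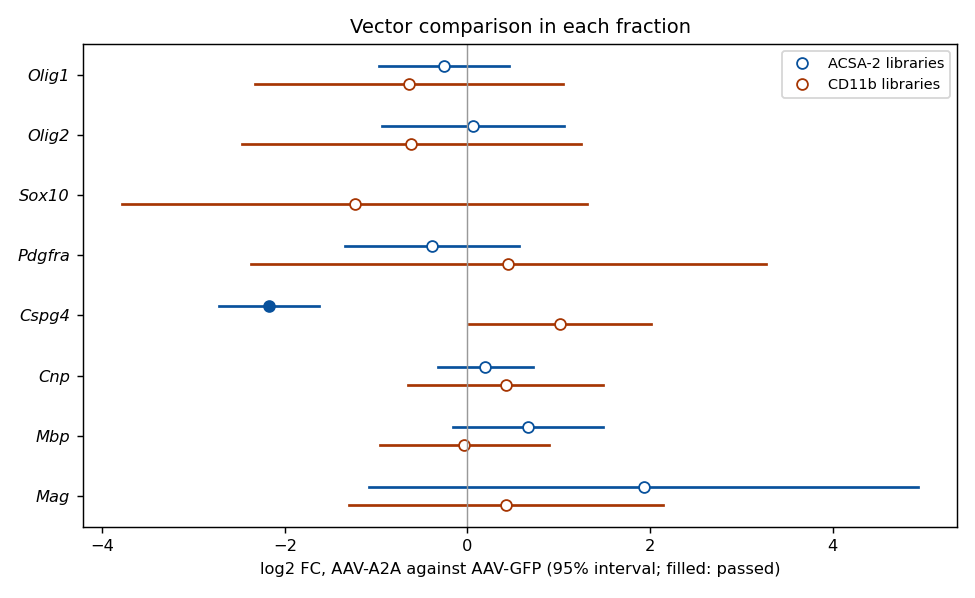
Log2 FC of AAV-A2A against AAV-GFP with its 95% interval from edgeR, for 8 genes in the ACSA-2 (blue) and CD11b (brown) libraries. Filled points passed the threshold; the 1 filled point is Cspg4 in the ACSA-2 fraction at -2.17, and Sox10 was not tested there.

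The same comparison in the CD11b fraction covers the CD11b-positive part of the cells left after astrocyte sorting. Cells that neither kind of bead retained were not sequenced. None of the 9 members passed the test. The edgeR fit called 0 of 16949 genes in all here (0.0%), with 2704 at an unadjusted p under 0.05, and DESeq2 called 502 genes, 0 of them members. Cspg4 was at 31.6, 27.4 and 62.1 CPM in the AAV-GFP and at 57.7, 119 and 71.6 CPM in the AAV-A2A libraries. The groups overlapped in GFP-2331 and A2A-2343, and the log2 FC of 1.02 (SE 0.42, 95% interval 0.02 to 2.01, unadjusted p = 0.0464) had an edgeR adjusted p of 0.308. Genes of like length had a median log2 FC of 0.34 in this fraction, and without the 3 libraries rich in choroid plexus transcripts the log2 FC of Cspg4 was 0.49. The sign of Cspg4 is thus opposite to that in the ACSA-2 fraction, and the interaction is given below. The 13 mural markers summed to 901 to 2323 CPM in AAV-GFP and 899 to 2364 CPM in AAV-A2A libraries, a sum of which Vtn makes up the largest share, and single markers went both ways. Of these 13, 0 were called by edgeR and 3 had an unadjusted p under 0.05. Pdgfrb, a pericyte receptor gene named after its values were seen, was at 32.7 ± 21.9 and 168 ± 155 CPM (log2 FC 2.35, edgeR adjusted p = 0.288), and Notch3 at 10.3 ± 5.39 and 41.7 ± 39.3 CPM (log2 FC 2.00, edgeR adjusted p = 0.326). Acta2, a smooth muscle actin gene also named afterwards, was at 125 ± 17.6 and 61.9 ± 22.8 CPM (log2 FC -1.05, edgeR adjusted p = 0.280). Their part in the values of Cspg4 was not tested.

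Pdgfra was widely scattered in the CD11b fraction. It was at 16.4, 9.13 and 4.44 CPM in the AAV-GFP and 0.656, 8.87 and 30.5 CPM in the AAV-A2A libraries. AAV-A2A thus held both its lowest and its highest library. The log2 FC was 0.45 (SE 1.19, 95% interval -2.37 to 3.27, edgeR adjusted p = 0.873) and -1.16 without A2A-2347. The 10 fibroblast markers, a cell type that also carries Pdgfra, summed to 96.0 to 294 CPM over the 6 libraries, and their lowest and highest libraries, A2A-2343 and A2A-2347, were also those of Pdgfra. What part fibroblasts have in it was not tested.

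The factors were low in the CD11b fraction. Olig1 was at 6.90, 11.9 and 10.9 CPM in AAV-GFP and 11.1, 7.54 and 1.36 CPM in AAV-A2A libraries (log2 FC -0.64, SE 0.71, 95% interval -2.32 to 1.04, edgeR adjusted p = 0.678). Olig2 was at 1.91, 2.65 and 1.28 CPM and at 0.399, 2.40 and 1.14 CPM (log2 FC -0.61, SE 0.78, interval -2.47 to 1.25, edgeR adjusted p = 0.722). Sox10 counts were 32, 83 and 4 with AAV-GFP against 14, 11 and 24 with AAV-A2A (log2 FC -1.23, SE 1.07, edgeR adjusted p = 0.596), and its highest library, GFP-2329, is one of the 3 rich in choroid plexus transcripts.

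No myelin gene passed the test in the CD11b fraction either, but Mag and Cnp were ordered alike over the libraries. Mag was at 7.67, 20.1 and 65.9 CPM in AAV-GFP and 56.3, 45.3 and 25.1 CPM in AAV-A2A libraries (log2 FC 0.42, SE 0.72, 95% interval -1.29 to 2.14, edgeR adjusted p = 0.795). Cnp was at 55.5, 72.1 and 167 CPM and at 167, 139 and 93.5 CPM (log2 FC 0.42, SE 0.45, interval -0.65 to 1.49, edgeR adjusted p = 0.671). Both genes rank GFP-2328, GFP-2329, A2A-2347, A2A-2344, A2A-2343 and GFP-2331 from low to high. The 12 microglial markers, which summed to 8515, 17420 and 62970 CPM in the AAV-GFP and 69310, 55520 and 23260 CPM in the AAV-A2A libraries, rank these libraries the same way but for the top pair, which is exchanged. Mbp did not share this order, with 63.2, 81.9 and 38.1 CPM in AAV-GFP and 45.1, 68.3 and 69.0 CPM in AAV-A2A libraries (log2 FC -0.03, SE 0.39, interval -0.95 to 0.89, edgeR adjusted p = 0.975), and its 2 lowest libraries, GFP-2331 and A2A-2343, were those with the most microglial marker RNA. Mog had 8 to 22 counts in 5 libraries and 0 in A2A-2347. The sign of the vector difference of these genes changed without the 3 libraries rich in choroid plexus transcripts, 2 of which are AAV-GFP. The log2 FC was then -0.40 for Mag, -0.15 for Cnp and 0.55 for Mbp. This fit has GFP-2331 as its only AAV-GFP library, so it cannot tell such a change from the spread between libraries. The part of either cell type in these orders was not tested.

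**Figure D3:**
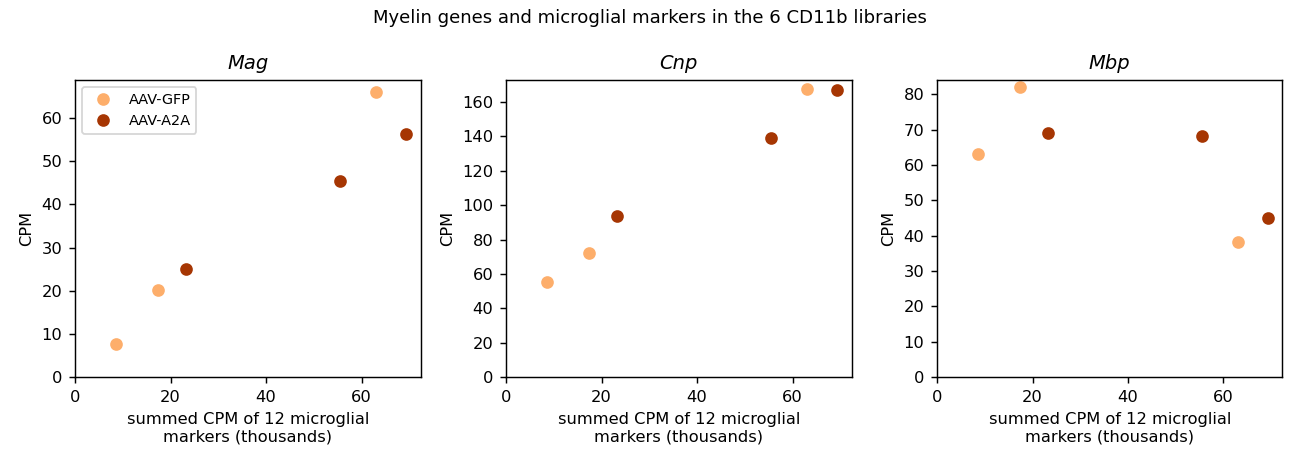
Level of Mag, Cnp and Mbp in CPM against the summed CPM of the 12 microglial markers (in units of 1000 CPM) in the 6 CD11b libraries, by vector. Mag goes from 7.67 to 65.9 CPM and Cnp from 55.5 to 167 CPM over libraries with few to many microglial transcripts, while the libraries with the most of them have the lowest Mbp.

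Whether the vector difference itself differs between the fractions was tested as an interaction over all 12 libraries. Cspg4 was the 1 of 9 members called, beside 0.403% of 18602 genes tested (75 genes, 68 with the lower difference in ACSA-2). Its log2 FC in ACSA-2 less that in CD11b was -3.23 (SE 0.55, 95% interval -4.43 to -2.04, edgeR adjusted p = 0.0439). The size held but the call did not: the difference stayed between -3.69 and -2.68 in all alternatives, while the adjusted p was over the threshold when any of 10 of the 12 libraries was omitted (up to 0.169, without GFP-2329), with RLE scaling (0.0505), without the 3 libraries rich in choroid plexus transcripts (0.221) and with the length trend removed (0.113).

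Between the fractions, 6 of 9 members were called, beside 54.1% of the 18602 genes tested, and they went both ways. Olig1, Olig2, Cnp and Cspg4 were higher in the ACSA-2 fraction, Mag and Mbp in the CD11b fraction. The median log2 FC of the 9 members was -0.25, against -0.13 over all tested genes. Olig1 had the largest difference towards ACSA-2, with 86.9 to 240 CPM (median 192) in the 6 ACSA-2 and 1.36 to 11.9 CPM (median 9.21) in the 6 CD11b libraries (log2 FC 4.49, SE 0.47, edgeR adjusted p = 1.78e-05). Olig2 followed with 14.7 to 50.3 (median 32.9) and 0.399 to 2.65 CPM (median 1.60) (log2 FC 4.28, SE 0.49, edgeR adjusted p = 3.27e-05). Neither overlapped between the fractions, and with each library left out their log2 FC stayed between 4.25 and 4.78 for Olig1 and between 4.02 and 4.65 for Olig2. Sox10, the third factor of the lineage, went the other way without passing, with 0 to 21 counts in ACSA-2 and 4 to 83 counts in CD11b libraries (log2 FC -1.87, SE 1.13, edgeR adjusted p = 0.179).

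The myelin genes split as well. Cnp was at 266 to 486 CPM (median 333) in ACSA-2 and 55.5 to 167 CPM (median 116) in CD11b libraries, with no overlap (log2 FC 1.60, SE 0.29, edgeR adjusted p = 0.000813). Mag was at 0 to 3.24 CPM (median 0.949) in ACSA-2 and 7.67 to 65.9 CPM (median 35.2) in CD11b libraries, again with no overlap (log2 FC -5.23, SE 0.81, 95% interval -7.01 to -3.46, edgeR adjusted p = 2.52e-04). Both held under each alternative run, from 1.09 to 1.91 for Cnp and from -5.97 to -4.43 for Mag. Mbp was at 12.6 to 43.1 CPM (median 31.9) in ACSA-2 and 38.1 to 81.9 CPM (median 65.7) in CD11b libraries and overlapped (log2 FC -1.09, SE 0.28, edgeR adjusted p = 0.00678). Its call rests on less: genes of like length had a median log2 FC of -0.69, and Mbp did not pass with the length trend removed (log2 FC -0.55, adjusted p = 0.0969) or without the 3 libraries rich in choroid plexus transcripts (-0.73, adjusted p = 0.0934), nor in the AAV-GFP (-1.41, adjusted p = 0.0662) or AAV-A2A libraries (-0.72, adjusted p = 0.0859) alone. Mog did not differ detectably, at 0 in 4 of 6 ACSA-2 and 1 of 6 CD11b libraries.

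For the precursor genes the fraction comparison depended on the vector or on single libraries. Cspg4 was at 44.8 to 296 CPM (median 130) in ACSA-2 and 27.4 to 119 CPM (median 59.9) in CD11b libraries and passed over all 12 libraries (log2 FC 1.06, SE 0.27, edgeR adjusted p = 0.00591). In the AAV-GFP libraries alone its log2 FC was 2.68 (edgeR adjusted p = 0.00605), and in the AAV-A2A libraries alone -0.50 (adjusted p = 0.277). Without the 3 libraries rich in choroid plexus transcripts it was 0.68 (adjusted p = 0.0804). The 13 mural markers summed to 4223 to 8735 CPM in ACSA-2 and 899 to 2364 CPM in CD11b libraries. Pdgfra was at 4.16 to 7.51 CPM (median 4.45) in ACSA-2 and 0.656 to 30.5 CPM (median 9.00) in CD11b libraries and did not pass (log2 FC -1.18, SE 0.65, edgeR adjusted p = 0.144). It passed without A2A-2343 (-1.47, adjusted p = 0.0140) and changed sign without the 3 choroid-rich libraries (0.12).

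**Figure D4:**
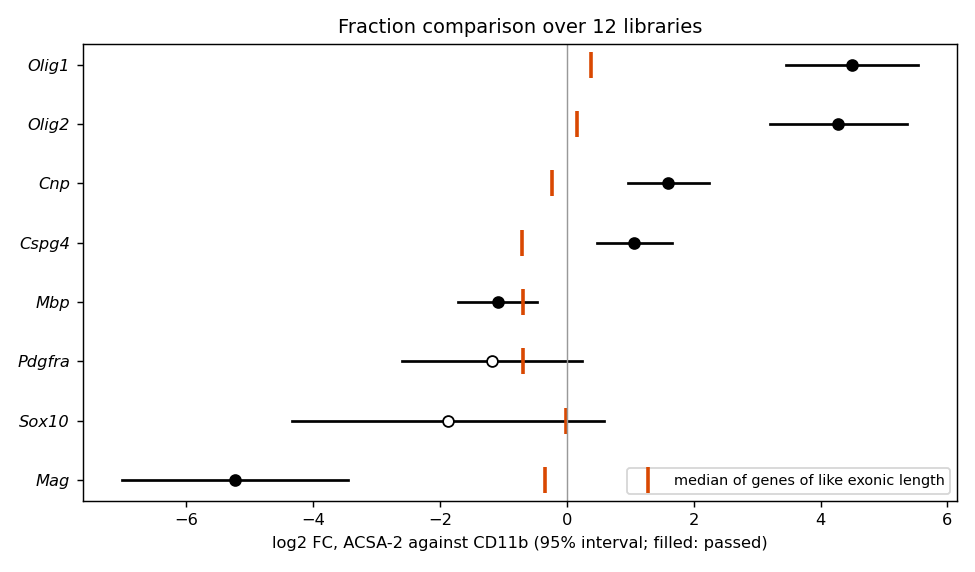
Log2 FC of ACSA-2 against CD11b with its 95% interval from edgeR over 12 libraries for 8 genes, sorted by size, with the median of the tested genes of like exonic length as an orange tick. Olig1 (4.49) and Mag (-5.23) lie at the ends, and the interval of Mbp includes the tick of its length class (-0.69).

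The balance of mature over precursor transcripts was described within each library as the summed RPKM of Cnp, Mbp, Mag and Mog over that of Pdgfra and Cspg4. In the ACSA-2 fraction the ratio was 5.29, 3.98 and 3.64 in the AAV-GFP and 15.9, 15.8 and 33.0 in the AAV-A2A libraries, with no overlap. The mean log2 ratio was 2.09 ± 0.281 and 4.34 ± 0.611 (SD, n = 3). The numerator is nearly all Cnp and the denominator nearly all Cspg4 in this fraction, so the difference restates the lower Cspg4, and no test is given. In the CD11b fraction the ratio was 5.79, 10.8 and 11.8 in AAV-GFP and 13.3, 5.30 and 4.43 in AAV-A2A libraries, which overlap. Once Olig1, Olig2 and Sox10 were added to the lower sum, the ratio was 0.664 to 1.52 over the 6 ACSA-2 libraries and 2.95 to 6.34 over the 6 CD11b libraries. This separation largely restates the higher Olig1 in the ACSA-2 fraction (84.8 ± 25.3 RPKM, against 3.82 ± 1.82 in CD11b), and no test is given. The added factors act throughout the lineage, so this second ratio does not measure maturity.

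**Figure D5:**
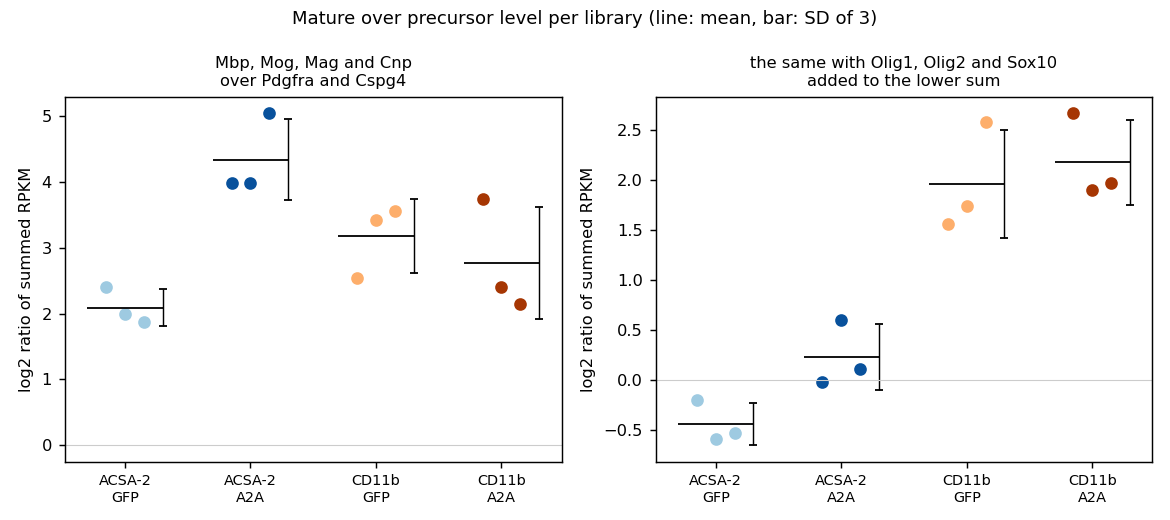
Log2 ratio of the summed RPKM of mature genes over that of precursor genes in each library, with the mean of 3 as a line and the SD as a bar. On the left, AAV-A2A libraries of the ACSA-2 fraction lie at 3.98 to 5.04, above the AAV-GFP libraries (1.86 to 2.40). On the right, Olig1, Olig2 and Sox10 are added to the lower sum. There the fractions separate, which largely restates the higher Olig1 in ACSA-2 libraries.

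Among 20 other listed precursor genes, 3 of the 16 tested in the ACSA-2 fraction were lower with AAV-A2A and 0 higher. The median log2 FC over the list was -0.07. Over all tested genes 3.36% were called (524 lower, 29 higher). The 3 lower genes of the list were the HMG-box factor genes Sox6 and Sox8 and the endocytic adaptor gene Epn2. By exonic length, 8.73% of genes were called over 10000 bases (the class of Sox6). The share was 2.14% from 3000 to 4000 bases (Sox8) and 3.9% from 4000 to 6000 bases (Epn2). Sox6 fell from 655 ± 66.8 to 221 ± 7.06 CPM (log2 FC -1.54, SE 0.16, edgeR adjusted p = 0.00206), Sox8 from 155 ± 34.0 to 56.5 ± 14.3 CPM (log2 FC -1.43, SE 0.24, edgeR adjusted p = 0.0107) and Epn2 from 75.7 ± 9.72 to 31.3 ± 11.1 CPM (log2 FC -1.24, SE 0.29, edgeR adjusted p = 0.0494). Of 13 listed genes of differentiating oligodendrocytes, 2 of 11 tested were lower and 0 higher. Itpr2, an IP3 receptor of intracellular calcium stores, fell from 697 ± 128 to 221 ± 28.9 CPM (log2 FC -1.63, SE 0.20, edgeR adjusted p = 0.00284), and Tmem2, a cell surface hyaluronidase now named Cemip2, from 13.0 ± 5.96 to 2.82 ± 0.275 CPM (log2 FC -2.17, SE 0.44, edgeR adjusted p = 0.0261). Both genes are long: Itpr2 is in the class over 10000 bases (8.73% called) and Tmem2 in that from 8000 to 10000 bases (6.52%). Astrocytes also express Sox6, Sox8 and Itpr2. Of 36 other myelin genes, 0 of 26 tested were called in this fraction (5 at an unadjusted p under 0.05), with a median of -0.03. In the CD11b fraction 0 of the 58 tested genes of the 3 lists passed (5 at an unadjusted p under 0.05), and 0 of 62 in the interaction (9 at an unadjusted p under 0.05).

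Between the fractions the 3 lists went both ways, beside 54.1% called over all tested genes. The counts of the differentiating and myelin lists lay near or below this share. No list, the precursor list included, was tested against it. Of the precursor list 9 genes were higher in ACSA-2 and 4 lower, of 19 tested. Among the highest were the brevican gene Bcan, also the most abundant of the list in ACSA-2 (1167 ± 231 CPM, n = 6, log2 FC 6.21) and Sox6 (6.05), while Gpr17, Pcdh15 and Megf11 were lower. All 12 astrocyte markers were higher in ACSA-2 too, with a median log2 FC of 5.61. The part of astrocyte RNA in the values of Bcan and Sox6 was not tested. Gpr17 and Pcdh15 were at 0 in all 3 AAV-GFP libraries of the ACSA-2 fraction and overlapped between the fractions, and Megf11 was at 0.734 ± 0.433 against 3.74 ± 0.626 CPM. Epn2 was the most abundant gene of the list in CD11b (36.7 ± 12.8 CPM). Of the differentiating list 2 were higher, Fyn (log2 FC 1.61) and Tcf7l2 (1.06), and 4 lower of 12 tested, led by Mycl (-3.86), Rras2 (-1.89) and Tns3 (-1.58), and Itpr2 was the most abundant in both fractions. Of the myelin list 9 were higher and 4 lower of 31 tested. Omg, the oligodendrocyte myelin glycoprotein gene, was at 613 ± 134 CPM in ACSA-2 and 2.22 ± 1.75 CPM in CD11b libraries (log2 FC 8.12), followed by Gpr37 (6.28) and Hhip (3.88). Trf, the transferrin gene and the most abundant of the list in CD11b, was at 228 ± 59.7 and 2897 ± 832 CPM (-3.65), after Evi2a (-4.15) and Tmem63a (-4.11). Car2, carbonic anhydrase 2, led in ACSA-2 with 1217 ± 238 CPM. The genes named here passed edgeR's test with adjusted p values from 6.12e-08 to 0.0141, except Epn2, Itpr2 and Car2, which are given for their level. Genes of the myelin list that mark mature oligodendrocytes most closely, named here after their values were seen, were near 0 in both fractions, like Mog. Opalin was at 0.194 ± 0.306 CPM in ACSA-2 and 0.171 ± 0.243 CPM in CD11b libraries, and Cldn11, a tight junction protein of myelin, at 0.518 ± 0.418 and 0.281 ± 0.153 CPM.

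Genes whose deviations from the group means were most like those of the members were also sought, among 11623 genes with a mean of at least 5 CPM. For the mean log2 CPM of Mbp, Mog, Mag and Cnp the 5 genes with the highest Pearson r over 12 libraries were Zfp146 (0.959), Prkx (0.959), Nfkbil1 (0.944), Ifitm10 (0.940) and E130309D02Rik (0.932). For that of Pdgfra and Cspg4 they were Ddb1 (0.979), Nynrin (0.970), Mink1 (0.969), Fto (0.966) and Eif4g1 (0.966). None of these is a gene of the lineage lists, the points share depth and library composition, and the values are the highest of many, so they are given as a description.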

How the data were processed

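RNA of ACSA-2 and CD11b fractions was amplified as full-length cDNA by PCR and tagmented. The deposited values are raw read counts per Ensembl gene. Per the submitters' processing notes and the study's methods, the authors trimmed reads with cutadapt 1.10, aligned them to the mm10 assembly with STAR 2.5.3 and counted unique, unambiguous reads with HTSeq 0.6.1p1. There are no molecular identifiers, so floors cover counting error only. The 25 unnamed columns of the tables were empty.

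Groups came from the sample labels. The replicates are separately labelled libraries, and p-values measure the spread between them. No replicate pair agreed within counting noise. Each vector comparison was fitted within its fraction, and fraction and interaction over 12 libraries, with edgeR 4.0.16 (quasi-likelihood test, TMM, filterByExpr, robust) in R 4.3.3. A gene passed at a Benjamini-Hochberg adjusted p under 0.05 over all tested genes and an absolute log2 FC over 0.32. DESeq2 1.42.0, limma-voom (limma 3.58.1), other scalings, filters and left-out libraries were alternatives. The tests were tried on simulated counts. Gene positions and lengths are from GENCODE, promoters from RefSeq (GRCm38.p6), with entries for 6 of 9 members.

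Members and lists were chosen with earlier results of these data known. Named beside the members were called genes of the lineage lists (up to 4 per list and direction between vectors, up to 3 between fractions), the most abundant gene of each list, and the 5 genes most like the members. Of the listed genes, Klk6, Ugt8a and Zfp488 were not analysed here in one or both fractions. Some genes that meet the naming rule are not reported here. Figures were drawn with matplotlib 3.10.9.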

Additional observations from a re-analysis of the deposited data

Results flagged for a closer look

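The vector difference of Cspg4 differed between the fractions at a borderline call. The log2 FC in ACSA-2 less that in CD11b was -3.23 (edgeR adjusted p = 0.0439 over 18602 genes), with 3 of 3 AAV-A2A libraries below every AAV-GFP library in ACSA-2 and overlapping groups in CD11b. The call was lost when any of 10 of the 12 libraries was omitted (edgeR adjusted p up to 0.169, without GFP-2329), with RLE scaling (0.0505), without the 3 choroid-rich libraries (0.221) and with the length trend removed (0.113).

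Within the 6 libraries of a fraction, 1 library stood far from the others for 3 of 20 sets of values tested, where chance flags about 1 in 20. For Mag in the ACSA-2 fraction, GFP-303 (0 counts) lay below the rest by 0.656 of the whole log2 range. For Olig1 in the CD11b fraction, A2A-2347 (80 counts, against 255 to 518 in the others) lay below by 0.748 of the range, and for Mog, A2A-2347 (0 counts) by 0.656. A2A-2347 is one of the 3 CD11b libraries rich in choroid plexus transcripts.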

How the results depend on the processing

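The number of members called between the vectors in ACSA-2 (1) and in CD11b (0) was the same in every alternative, and between the fractions it was 4 to 7. In the interaction 1 member was called by DESeq2, limma-voom and with no filter, 0 with RLE scaling, without the 3 libraries rich in choroid plexus transcripts and with the trend on exonic length removed (both chosen after seeing the data), and 0 to 1 with 1 library left out. With 1 library left out, the vector log2 FC in ACSA-2 went from -0.56 to 0.052 for Olig1 (positive without A2A-310), -0.48 to 0.40 for Olig2 (negative without A2A-313 or GFP-303) and -0.079 to 0.39 for Cnp (negative without A2A-313), and Olig2 also changed sign with limma-voom (-0.0098) and the length trend removed (-0.018). In CD11b the same range was -1.77 to 0.040 for Sox10 (positive without GFP-2329), -1.16 to 1.05 for Pdgfra (negative without A2A-2347), -0.31 to 0.24 for Mbp (positive without GFP-2328, GFP-2329 or A2A-2343) and -0.026 to 1.53 for Mag (negative without GFP-2328). Pdgfra also changed sign with limma-voom (-0.54) and the length trend removed (-0.11), and Mbp with limma-voom (0.0083) and no filter (0.011). Without the 3 libraries the values in CD11b were 0.11 for Olig2, 1.74 for Sox10, 0.55 for Mbp, -0.40 for Mag and -0.15 for Cnp. GFP-2331 was then the only AAV-GFP library of that fraction. Between the fractions Cspg4 changed sign in AAV-A2A libraries alone (-0.50) and Pdgfra without the 3 libraries (0.12). The causes were not tested. The mean log2 ratio of mature over precursor RPKM was higher in ACSA-2 by 0.243, and by 0.483 without Mbp, but -0.047 on counts not divided by length and -2.17 with Olig1, Olig2 and Sox10 added to the precursor sum. Over all genes, the vector test called 553 in ACSA-2, 1277 with DESeq2 and 156 by edgeR on all 12 libraries, and the interaction 75, 1740 with DESeq2, 10 with RLE and 0 without the 3 libraries or with the length trend removed. With upper quartile scaling 5288 of 9999 fraction calls were higher in ACSA-2, against 4578 of 10055. Low counts limit Sox10 and Mog in both fractions and Mag in ACSA-2. No paired analysis was possible because the groups compared share no replicate number.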
